A study of Homo sapiens with 12 samples.

Results

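The replication-dependent histone genes encode the H1, H2A, H2B, H3 and H4 proteins that package newly made DNA. They were taken from the expression table by symbol, with H1-1 to H1-6 and every gene named H2AC, H2BC, H3C or H4C plus a number, and were kept if the value was above 0 in at least 1 library. Of 67 such genes among the 22379 genes of the table, 44 were kept and 23 were listed at 0 in all 12 libraries. H2AC18 and H2AC19 also bear such names in GENCODE release 44 and were not analysed here. The 44 genes lie on chromosome 6 (36 genes), chromosome 1 (7 genes) and chromosome 12 (1 gene).

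Histone synthesis is tied to S phase, when the factor NPAT drives the transcription of these genes. Most histone mRNAs do not end in a poly(A) tail. They are cut by a complex containing the U7 snRNP just after a conserved stem-loop, which is bound by SLBP, and the stem-loop and SLBP then govern translation and decay of the mRNA. A small fraction of histone transcripts is cleaved at a polyadenylation signal instead, mainly in cells that leave the cycle or when stem-loop processing fails. The libraries were made from poly(A)-selected RNA, so the values below cover the polyadenylated forms and whatever tail-less RNA was carried through selection, and not the bulk of histone mRNA.

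The cells were U2OS, a human osteosarcoma line. They received a pX330 plasmid with Cas9, a puromycin resistance gene and a guide RNA that targets no gene (NONT), the nuclear pore gene NUP93 (NUP93-KO) or EXOSC5 (EXOSC5-KO), which encodes a core subunit of the RNA exosome, the complex that digests RNA from its 3′ end. The populations were transiently transfected pools and not clones, so unedited cells could remain. Each genotype was given DMSO, which the sample titles call untreated, or 1 μM triptolide, which blocks the XPB subunit of TFIIH and thereby transcription initiation by RNA polymerase II, and was collected after 8 h. Each of the 6 groups had 2 libraries, and nothing in the labels states that they came from separate cultures, so p-values measure only the spread between these samples.

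Values are the spike-in-scaled signal per gene, on which a library with less mRNA per counted cell has lower values throughout. Approximate depth was 8.56 M to 11.9 M reads per library (M, mega) and 15795 to 16523 genes were above 0. The scale of the DMSO libraries of NONT was uneven, with a median log2 difference over genes of −0.51 for the first minus the second. NUP93 itself was at 1753 and 2489 in NONT and at 1395 and 1432 in NUP93-KO under DMSO, a log2 difference of −0.56 ± 0.20 (SE) that did not pass the test (limma adjusted p = 0.926). EXOSC5 was at 299 and 481 in NONT and at 216 and 148 in EXOSC5-KO, a log2 difference of −1.08 ± 0.29 (limma adjusted p = 0.151). Both targeted genes were thus lower in both of their own libraries without passing the test across all genes. Of the bone markers, COL1A1, SPARC, RUNX2 and ALPL were expressed and COL1A2 lay between 4.05 and 42.0. SP7 and IBSP were listed at 0 in every library and BGLAP did not exceed 5.68. Of markers of other cell types, the endothelial gene PECAM1 did not exceed 9.99, and the epithelial genes CDH1 and EPCAM lay between 13.5 and 69.7. In bulk RNA, fewer cells that express a gene and less of its RNA per cell cannot be told apart.

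All 67 genes carried a histone stem-loop within 200 bases after the stop codon, whereas 78 of 19539 coding genes did (0.399%), when 1 mismatch to the histone stem-loop consensus was allowed. The stem-loop sequences of the genes on which the results turn are shown because this element decides whether a histone mRNA ends without a tail. Each line gives GRCh38 (hg38) DNA of the coding strand from 5′ to 3′, with the stem-loop in capitals and 5 flanking bases on each side.
H1-2, chr6:26055739-26055764, minus strand: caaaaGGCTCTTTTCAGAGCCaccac
H2AC6, chr6:26124664-26124689, plus strand: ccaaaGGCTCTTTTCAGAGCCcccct
H2BC12, chr6:27146361-27146386, minus strand: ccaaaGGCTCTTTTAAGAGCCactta
H2BC5, chr6:26158582-26158607, plus strand: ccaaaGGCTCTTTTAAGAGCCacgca
H2BC11, chr6:27132316-27132341, minus strand: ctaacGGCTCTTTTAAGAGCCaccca
H2BC6, chr6:26184205-26184230, plus strand: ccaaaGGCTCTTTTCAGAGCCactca
H3C10, chr6:27810511-27810536, plus strand: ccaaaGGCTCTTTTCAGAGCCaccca
H4C5, chr6:26204996-26205021, plus strand: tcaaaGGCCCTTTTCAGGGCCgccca
H4C12, chr6:27831173-27831198, minus strand: caaaaGGCCCTTTTTAGGGCCcccac
H4C14, chr1:149833027-149833052, plus strand: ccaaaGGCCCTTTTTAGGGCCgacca
H4C15, chr1:149860764-149860789, minus strand: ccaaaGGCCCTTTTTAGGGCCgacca

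The commonest stem-loop, shared by H1-2, H2AC6, H2BC6 and H3C10, was found in 38 of the 67 genes. The form of H2BC12, H2BC5 and H2BC11 was found in 9 genes, and the form of H4C5 in 10 genes, all of the H4 family. H4C12, H4C14 and H4C15 shared a form seen in 4 genes.

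The genes differed in what the annotation holds downstream of the stem-loop. In 50 genes no annotated transcript ran more than 100 bases past the stem-loop, and in 17 genes at least 1 transcript reached more than 100 bases past it, in part through a spliced downstream exon. Of the 17 genes with a longer transcript, 13 were above 0 and 12 reached a mean of 10 over the 6 DMSO libraries, the level required for testing. Of the 50 genes without one, 31 were above 0 and 8 reached that level. The strongest genes nevertheless stood in both classes. H2BC12 and H1-2 have a single annotated exon that ends 5 and 4 bases after the stem-loop, whereas H2AC6, H2BC21, H2BC5 and H2BC11 have transcripts that run further. The gene-level values do not say where along a transcript the reads fell, and the part of the annotation itself in the difference between the classes was not tested.

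**Figure D1:**
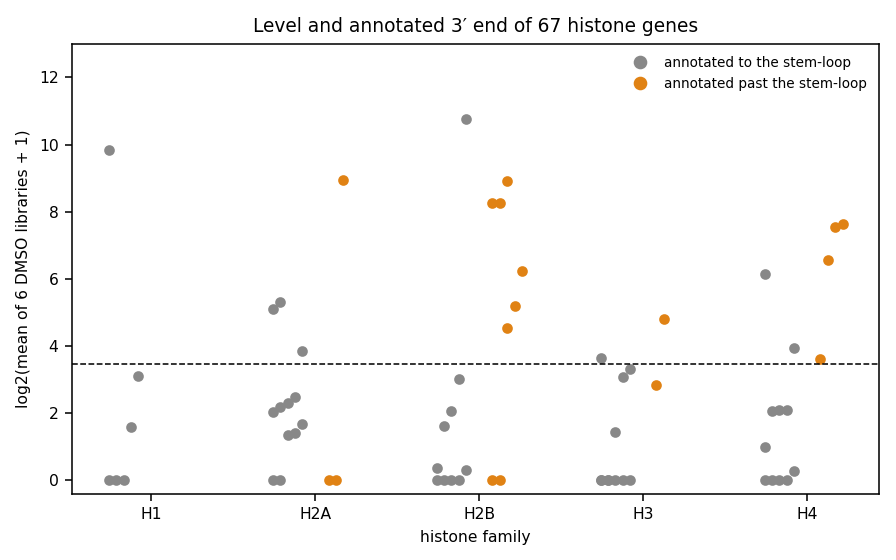
Mean of the 6 DMSO libraries, as log2(mean + 1), for the 67 histone genes by family, with genes annotated only to the stem-loop in grey and genes annotated past it in orange; the dashed line marks the mean of 10 required for testing. Of the orange points 12 of 17 lie above the line and of the grey points 8 of 50.

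In promoter sequences of RefSeq (GRCh38.p14, windows of equal length that lie mostly upstream of the start), 62 of the 67 genes were matched by symbol. H3C4 was left out because its window is that of H2AC7, which leaves 61. The TATA box letters TATAAA, on either strand, were in 65.6% of these promoters and in 11.5% of all 35116. The letters CCAAT were in 83.6% against 34.6%, and they were present in all H1, H2A, H2B and H3 promoters matched but in 3 of 13 of the H4 family. The octamer ATGCAAAT was in 41.0% against 1.77%, with 14 of 18 H2B and 11 of 14 H2A promoters holding it and none of the 10 H3, 13 H4 and 6 H1 promoters. Many H2A and H2B windows overlap that of a neighbouring gene on the other strand, such as those of H2BC4 and H2AC6. A motif in the shared DNA counts for both genes, so the 61 promoters are not all separate sequences. No motif contains another, and a match describes the sequence only.

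The 44 genes together summed to 1832 to 6106 per library, which was 0.0331% to 0.0424% of all gene values. A few genes made up most of that sum. H2BC12, an H2B gene of the major chromosome 6 cluster, held 35.7% of the sum of means over the 12 libraries, H2BC12 and the linker histone gene H1-2 together held 55.4%, and with H2AC6, H2BC21 and H2BC5 the share was 78.5%. H2B genes accounted for 52.2% to 64.1% of a library's histone sum, H1 for 14.2% to 28.3%, H2A for 8.68% to 13.2%, H4 for 7.42% to 12.5% and H3 for 0.533% to 1.69%. Thus the core histone families were far from equal in these poly(A)-selected libraries.

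Per kilobase of the longest annotated transcript, the mean over the 12 libraries was 2872 for H2BC12 and 1076 for H1-2. It was 291 for H2BC5, 211 for H2BC11, 208 for H2AC6, 155 for H4C12, 84.9 for H4C14, 69.6 for H4C15, 68.2 for H2AC20 and 50.4 for H2AC11. The leading H3 genes were at 14.6 (H3C10) and 14.4 (H3C15) per kilobase, and the levels of H2BC11 and H2AC6 and of the H3 pair lay next to each other.

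Tests were possible for 20 of the 44 genes, namely 1 H1, 4 H2A, 7 H2B, 2 H3 and 6 H4 genes. The other 24 had DMSO means of at most 8.91. Several tested genes share sequence with a neighbour, and kallisto divides such reads between copies. The share of 31-base words found in no other gene was over 80% for 13 of the 20 genes. It was 60.8% for H2AC20, 35.1% for H2AC13, 29.0% for H2BC12, 7.0% for H4C12, 1.44% for H4C14, and no word was unique in H4C15 or H3C15. The values of these 7 genes are uncertain to that extent. H2BC12 shares most of its other words with H2BC12L, which was listed between 0 and 5.80, and H4C12 and H3C15 share theirs with H4C11 and H3C14, which were listed at 0. H4C14 and H4C15 share theirs with each other, and their sum is given below beside each.

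**Figure D2:**
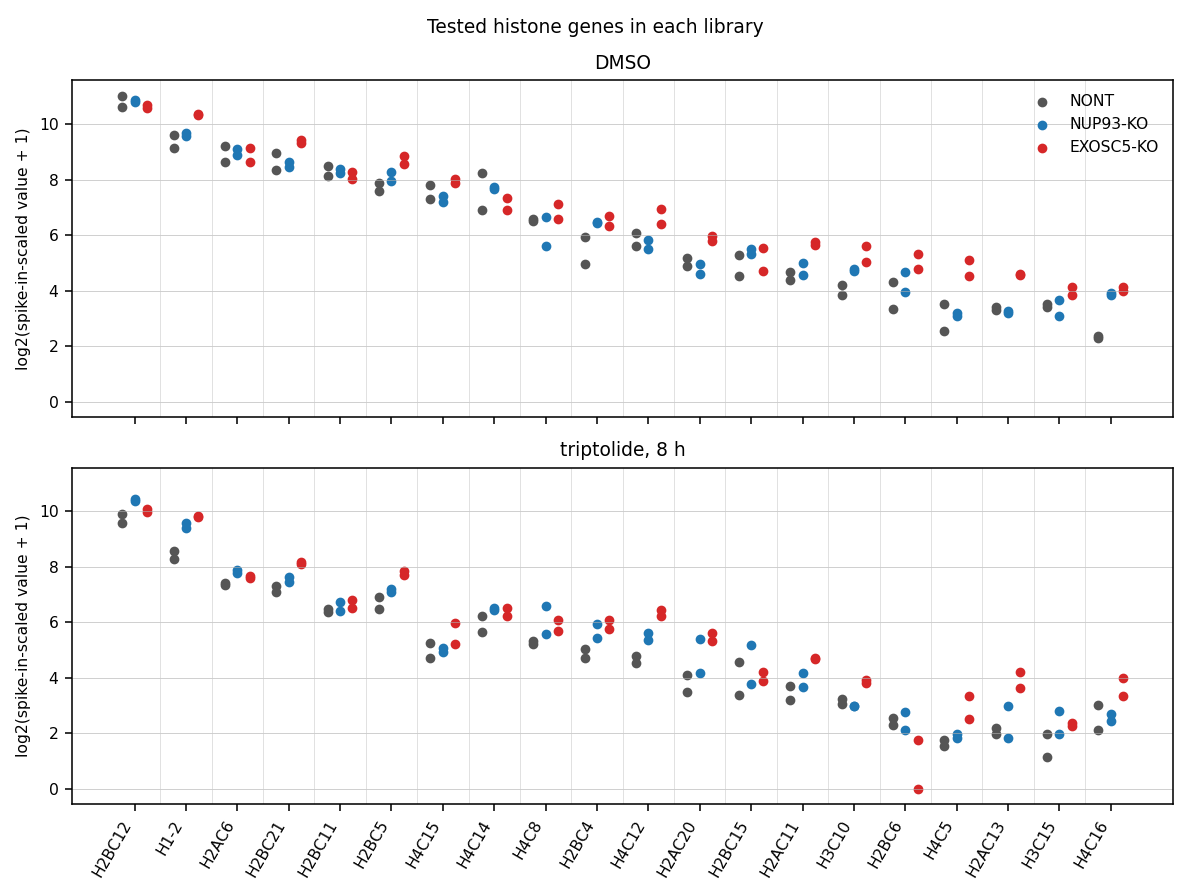
Each point is 1 library, as log2(spike-in-scaled value + 1), for the 20 tested genes ordered by DMSO mean, with the 3 genotypes in separate colours and DMSO above triptolide. H2BC12 and H1-2 are highest in both panels, the EXOSC5-KO points of H1-2 lie above those of NONT in both, and H2BC6 has a point at 0 in EXOSC5-KO after triptolide.

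The DMSO libraries were compared for differences in the histone transcripts captured by poly(A) selection when the exosome subunit or the pore protein is targeted. H1-2, which encodes an abundant somatic linker histone, was higher in EXOSC5-KO than in NONT. Most other histone genes lay higher in EXOSC5-KO as well without passing the test, and the most abundant core histone gene, H2BC12, did not. Both knockouts were set against the same pair of NONT libraries, so those comparisons are not independent of each other.

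H1-2 was at 563 and 778 in NONT, 759 and 813 in the NUP93-KO libraries and 1319 and 1281 in the EXOSC5-KO libraries. Both EXOSC5-KO libraries stood above the other 4, and NUP93-KO overlapped with NONT. The log2 difference of EXOSC5-KO against NONT was 0.97 ± 0.20 (SE, limma adjusted p = 0.0372), or 1.96-fold on the log2(value + 1) scale, which understates the change of low genes. It was the only one of the 20 genes to pass the threshold in this comparison, in which 0.485% of the 13811 genes tested were called higher and 0.0362% lower, and 9 histone genes were above NONT at an unadjusted p under 0.05 (6.03% of all genes). The difference of H1-2 was positive under every alternative tried, from 0.60 with libraries set to the same sum of mitochondrial mRNAs to 1.21 without the second NONT library, but its adjusted p ranged from 0.000195 to 0.289, and without the first NONT library, whose scale was low, it was 0.0730 at a log2 difference of 0.74. The call was lost in 9 of the 12 fits that left out 1 library (adjusted p from 0.0611 to 0.289), without the variance trend (0.143), under the replicate block (0.0599) and on the mitochondrial scale (0.0535).

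Against NUP93-KO, a comparison that shares the EXOSC5-KO libraries with the one above, the log2 difference of H1-2 was 0.73 ± 0.20, which did not pass the threshold (limma adjusted p = 0.245). No histone gene passed it there, in either direction, with 0.268% of all genes called higher in EXOSC5-KO and 0.0217% lower, and 6 were higher at an unadjusted p under 0.05 (6.70% of all genes). With libraries set to the same sum over genes, H1-2 and H2BC21 passed as higher and H2BC12 as lower.

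H2BC5 was at 190 and 237 in NONT, 244 and 310 in the NUP93-KO libraries and 466 and 381 in the EXOSC5-KO libraries, so both EXOSC5-KO libraries were above all others (log2 difference against NONT of 0.99 ± 0.26, limma adjusted p = 0.153). H2BC21, a chromosome 1 gene with a long annotated 3′ end, was at 323 and 499 in NONT, 352 and 395 in the NUP93-KO libraries and 682 and 633 in the EXOSC5-KO libraries (0.71 ± 0.24, limma adjusted p = 0.344). Neither passed the threshold, although both did with libraries set to the same sum over genes.

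H2BC12 was at 1571 and 2088 in NONT, 1775 and 1892 in the NUP93-KO libraries and 1651 and 1542 in the EXOSC5-KO libraries. Its EXOSC5-KO libraries overlapped with NONT and lay below NUP93-KO, and the log2 difference against NONT was −0.18, with a 95% interval from −0.59 to 0.22. H2BC11 was at 276 and 355 in NONT and at 260 and 307 in EXOSC5-KO, again with overlap. H2BC4 was higher in both knockouts, at 30.1 and 60.5 in NONT, 85.4 and 86.8 in the NUP93-KO libraries and 102 and 79.8 in the EXOSC5-KO libraries, and its differences of 0.99 ± 0.40 and 1.06 ± 0.40 did not pass the test (limma adjusted p = 1 and 0.438).

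Of the H2A genes, H2AC6 was at 398 and 594 in NONT, 555 and 477 in the NUP93-KO libraries and 560 and 399 in the EXOSC5-KO libraries, and the 3 genotypes overlapped. H2AC11 was at 20 and 24.6 in NONT, 31.3 and 22.3 in the NUP93-KO libraries and 52.4 and 48.4 in the EXOSC5-KO libraries, which was highest in both of its libraries (1.15 ± 0.48, limma adjusted p = 0.502). H2AC20 lay likewise, at 28.5 and 35.1 in NONT, 23.2 and 29.8 in the NUP93-KO libraries and 61.4 and 54.3 in the EXOSC5-KO libraries. H2AC11 and H2AC20 thus stood apart in EXOSC5-KO where H2AC6, the highest of the family per kilobase, did not.

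H3C10 was at 13.3 and 17.6 in NONT, 26.6 and 25 in the NUP93-KO libraries and 48.2 and 31.9 in the EXOSC5-KO libraries, with no overlap between the genotypes (1.30 ± 0.53 for EXOSC5-KO against NONT, limma adjusted p = 0.478). H4C5 was at 4.76 and 10.5 in NONT, 8.11 and 7.42 in the NUP93-KO libraries and 33.3 and 22.1 in the EXOSC5-KO libraries (1.79 ± 0.71, limma adjusted p = 0.463). H4C12 was at 47.6 and 66.6 in NONT, 44 and 55.6 in the NUP93-KO libraries and 123 and 84.0 in the EXOSC5-KO libraries. In each of these genes the EXOSC5-KO pair was highest. The sum of H4C14 and H4C15, which cannot be separated, was 345 and 458 in NONT, 367 and 361 in the NUP93-KO libraries and 420 and 354 in the EXOSC5-KO libraries, a log2 difference of −0.04 ± 0.25 against NONT.

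Across the 20 tested genes, the median log2 difference of EXOSC5-KO against NONT was 0.84, where the median of all 13811 genes was 0.07, and 16 of 20 differences were above 0, as were 59.5% of those of all genes. In 15 of the 20 both EXOSC5-KO libraries exceeded both NONT libraries, which held for 19.2% of all genes, and in none were both lower (9.20% of all genes). Against NUP93-KO both libraries were higher in 13 (39.0% of all genes) and lower in 2 (11.3%). H2AC13, H4C5, H4C16 and H3C15 reached the level for testing only with the EXOSC5-KO libraries counted. The counts above thus describe the genes that passed and are no independent support. When the genes were chosen on the NUP93-KO libraries alone, a choice made after the data were seen, 17 were tested and the median was again 0.84. Chosen on the NONT libraries alone, likewise after the data were seen, 17 were tested with a median of 0.71. With a DMSO mean of at least 50 required, 11 were tested and the median was 0.39. Among the 24 genes under the level, both EXOSC5-KO libraries were higher than NONT in 12 and lower in 1, at values of no more than 22.4, where the shares were 14% and 8.32% of the 5191 genes that were above 0 in a library but under that level. Among the tested genes annotated only to the stem-loop the median difference was 0.91 (8 genes), and among those annotated past it 0.55 (12 genes). H2AC13, H4C5 and H3C15 are in the first class and H4C16 in the second, so these medians carry the same limit of choice.

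By family, the H1 sum was 568 and 784 in NONT and 1325 and 1297 in EXOSC5-KO, and the H3 sum was 34.8 and 46.1 in NONT and 103 and 95.3 in EXOSC5-KO, so these sums stood apart. The H2B sum was 2428 and 3305 against 3257 and 3022, the H2A sum 467 and 680 against 723 and 572, and the H4 sum 499 and 631 against 698 and 639. The H2A and H2B sums overlapped, and the H4 pair of EXOSC5-KO was above that of NONT by less than the gap between the NONT libraries.

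In NUP93-KO against NONT under DMSO no histone gene passed the threshold in either direction (0.0145% of all genes called higher and 0.00724% lower), 2 were above NONT at an unadjusted p under 0.05 (1.75% of all genes), and the median over the 20 genes was 0.09 where that of all genes was −0.09. Both NUP93-KO libraries exceeded both NONT libraries in 5 of 20 genes (7.93% of all genes) and lay below them in 1 (12.8%). The lead in size belonged to H4C16, the chromosome 12 gene, at 3.94 and 4.19 in NONT and 14.2 and 13.3 in NUP93-KO (1.54 ± 0.65, limma adjusted p = 1), and it was chosen here after its values were seen. H4C16 is among the 5 genes counted and reached the level for testing only with the NUP93-KO libraries counted, from which this difference is taken. Its NONT values were worth about 4.1 and 2.4 reads.

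**Figure D3:**
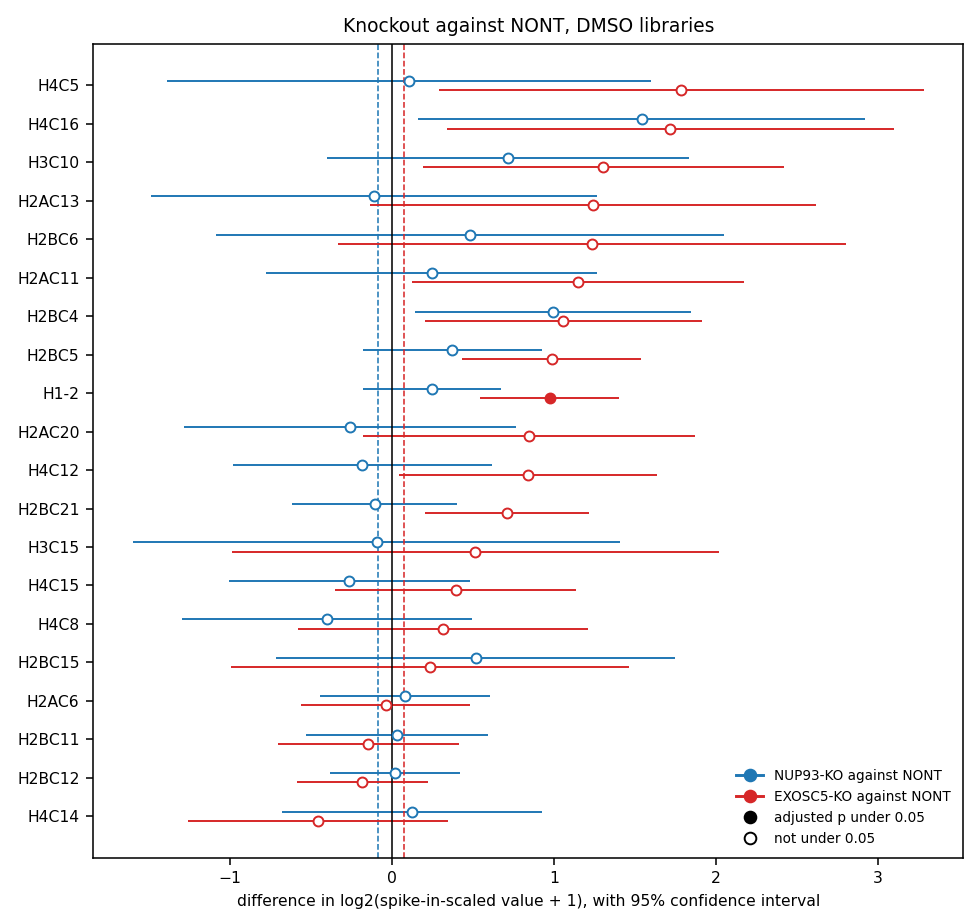
Difference of each knockout from NONT under DMSO in log2(value + 1), with 95% confidence intervals, for the 20 tested genes; filled points passed an adjusted p of 0.05 and dashed lines mark the median of all genes in each comparison. H1-2 in EXOSC5-KO is the filled point, at 0.97, and the EXOSC5-KO points of H2AC6, H2BC11, H2BC12 and H4C14 lie at or below 0.

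**Figure D4:**
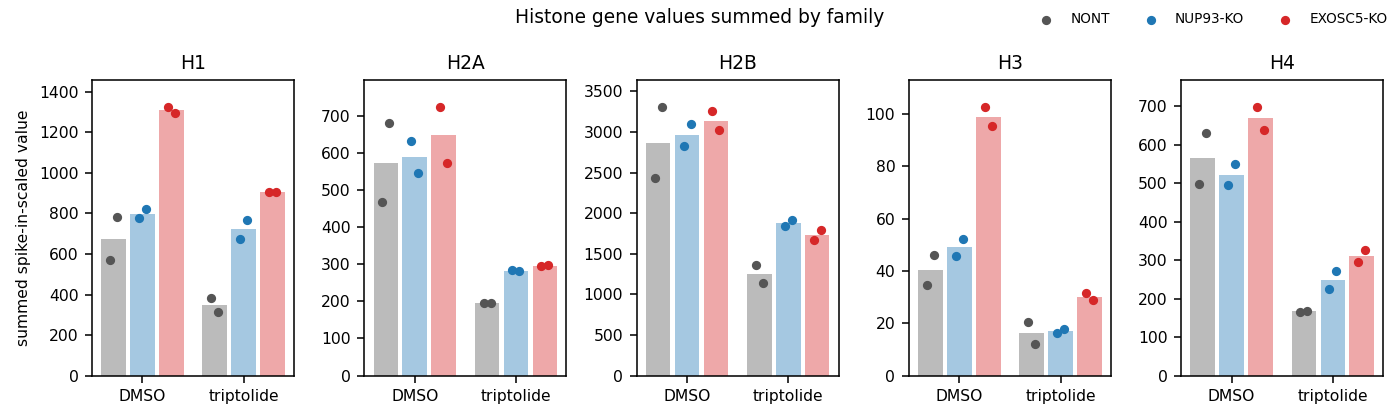
Summed spike-in-scaled value of the histone genes of each family, with bars at the mean of 2 libraries, points for the libraries and a separate vertical scale per family. The H1 and H3 sums of EXOSC5-KO stand above the other genotypes under DMSO, and all families are lower after triptolide in each genotype, least so for H1 in NUP93-KO.

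Triptolide tested how far the histone transcripts captured by poly(A) selection are lost once transcription initiation is blocked. In NONT the summed histone value went from 3997 and 5446 under DMSO to 2130 and 1832, a ratio of means of 0.420, and dividing each treated by each DMSO library gave 4 ratios from 0.336 to 0.533. The NUP93-KO sum was 4773 and 5068 before and 3038 and 3258 after the drug, leaving 0.640 of the mean (single ratios 0.599 to 0.683). The EXOSC5-KO sum was 6106 and 5625 before and 3189 and 3354 after it, leaving 0.558 (single ratios 0.522 to 0.596). The treated libraries lay below the DMSO libraries in each genotype, and the single ratios of NONT did not overlap with those of NUP93-KO but did with those of EXOSC5-KO.

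In NONT 13 of 20 genes fell and none rose, while 90.0% of all genes fell and 0.0507% rose. In NUP93-KO 8 of the 20 fell (55.1% of all genes fell and 0.138% rose). In EXOSC5-KO 11 fell (64.3% of all genes fell and 0.0796% rose). No histone gene rose in either knockout. The median log2 difference of the 20 genes was −1.25, −0.96 and −0.97 for NONT, NUP93-KO and EXOSC5-KO, where the medians of all genes were −1.62, −0.92 and −1.08. Both treated libraries were below both DMSO libraries in 17, 16 and 19 of 20 genes, against 94.8%, 79.1% and 88.0% of all genes. These directions depend on the spike-in scale. With libraries set to the same median of ratios, 1 histone gene was called lower in NONT and 5 higher, and each knockout had 2 called lower and 3 called higher, the median of all genes having moved to −0.02, −0.04 and −0.02.

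H4C15, a chromosome 1 gene of the H4 family, fell in every genotype, with a value that rests on how reads were divided between it and H4C14. It was at 225 and 157 under DMSO in NONT and at 37.1 and 25.5 after triptolide. The NUP93-KO values were 167 and 147 against 32.6 and 29.5, and the EXOSC5-KO values were 259 and 236 against 36.7 and 61.5. The groups did not overlap in any genotype, and the log2 differences were −2.57, −2.30 and −2.35, each ± 0.35 (limma adjusted p = 4.82e-06, 3.16e-05 and 2.2e-05). They remained negative and past the threshold with libraries set to the same sum over genes or the same median of ratios. Its indistinguishable partner H4C14 also fell in NONT and NUP93-KO, with log2 differences of −1.65 and −1.23, but these calls were not kept under all alternatives. The log2 differences of the sum of both genes were −2.10, −1.61 and −1.55 for the 3 genotypes in the same order (SE 0.25, limma adjusted p = 8.44e-07, 3.08e-05 and 3.99e-05). The sum was fitted on the spike-in scale only, so its fall on the other scales was not tested.

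H2BC11, at 276 and 355 in NONT under DMSO, was at 81.7 and 89.3 after triptolide. Its NUP93-KO pair moved from 305 and 336 to 105 and 84.9, and its EXOSC5-KO pair from 260 and 307 to 89.8 and 110. The treated and DMSO pairs did not overlap, and H2BC11 fell in every genotype, with log2 differences of −1.86, −1.75 and −1.50 (limma adjusted p = 7.44e-06, 2.84e-05 and 0.000117). H2AC6, whose mean per kilobase was next to that of H2BC11, was at 162 and 171 in NONT after triptolide, at 236 and 218 for NUP93-KO and at 202 and 194 for EXOSC5-KO, and fell in each, with log2 differences of −1.54, −1.18 and −1.25. H2BC21 and H2BC5 also fell in all genotypes, with log2 differences of −1.45, −1.01 and −1.22 for H2BC21 and −1.04, −0.96 and −0.95 for H2BC5, in the order NONT, NUP93-KO, EXOSC5-KO. H4C15, H2BC11, H2AC6, H2BC21 and H2BC5 were the 5 genes that passed in each genotype.

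In NONT, 16 of the 20 tested genes had log2 differences above the median of all genes. The 2 most abundant, H2BC12 and H1-2, were among them. After triptolide H2BC12 was at 958 and 771 in NONT, at 1327 and 1409 for NUP93-KO and at 997 and 1077 for EXOSC5-KO, leaving 47.2%, 74.6% and 64.9% of the DMSO mean. It fell in NONT and EXOSC5-KO, and in NUP93-KO the difference was −0.42 ± 0.19 (limma adjusted p = 0.0707). H1-2 was at 381 and 314 in NONT, at 670 and 764 for NUP93-KO and at 895 and 901 for EXOSC5-KO, which is 51.8%, 91.2% and 69.1% of the DMSO mean. It fell in NONT and EXOSC5-KO, with log2 differences of −0.93 ± 0.20 and −0.53 ± 0.20 (limma adjusted p = 0.000445 and 0.0299), and in NUP93-KO, where the treated and DMSO libraries overlapped, the difference was −0.14 with a 95% interval from −0.57 to 0.29. After triptolide the H1-2 values of EXOSC5-KO were above all DMSO values of NONT. With libraries set to the same sum over genes the sign of H1-2 turned, to 0.40 in NONT, 0.43 for NUP93-KO and 0.26 for EXOSC5-KO.

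Several low genes reached the threshold in some genotypes. H2BC6, whose longer transcript is spliced, was at 39.4 and 26.6 under DMSO and at 0 and 2.39 after triptolide in EXOSC5-KO, the deepest fall there (−4.18 ± 0.74, limma adjusted p = 0.000122), and its NUP93-KO values were 14.6 and 24.2, then 3.38 and 5.79 (−1.86 ± 0.74, limma adjusted p = 0.0424). The NONT values of 9.20 and 18.7, then 4.84 and 3.91, did not overlap either, but the difference did not pass. The size of the first value depends on the constant added before the logarithm, being −2.62 when 5 and −4.77 when 0.5 was added. H3C15, at DMSO values of 7.45 to 16.4, fell in NONT and EXOSC5-KO, with log2 differences of −1.91 and −1.67. H3C10 fell in both knockouts (−1.75 for NUP93-KO and −1.47 for EXOSC5-KO). H4C5 had a log2 difference of −1.89 in EXOSC5-KO. H4C5 and H3C15 are among the 11 counted there. Both reached the level for testing only with the EXOSC5-KO DMSO libraries, from which those differences are taken. With a mean of at least 10 over all 12 libraries required, 17 histone genes were tested and 9 fell in EXOSC5-KO.

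**Figure D5:**
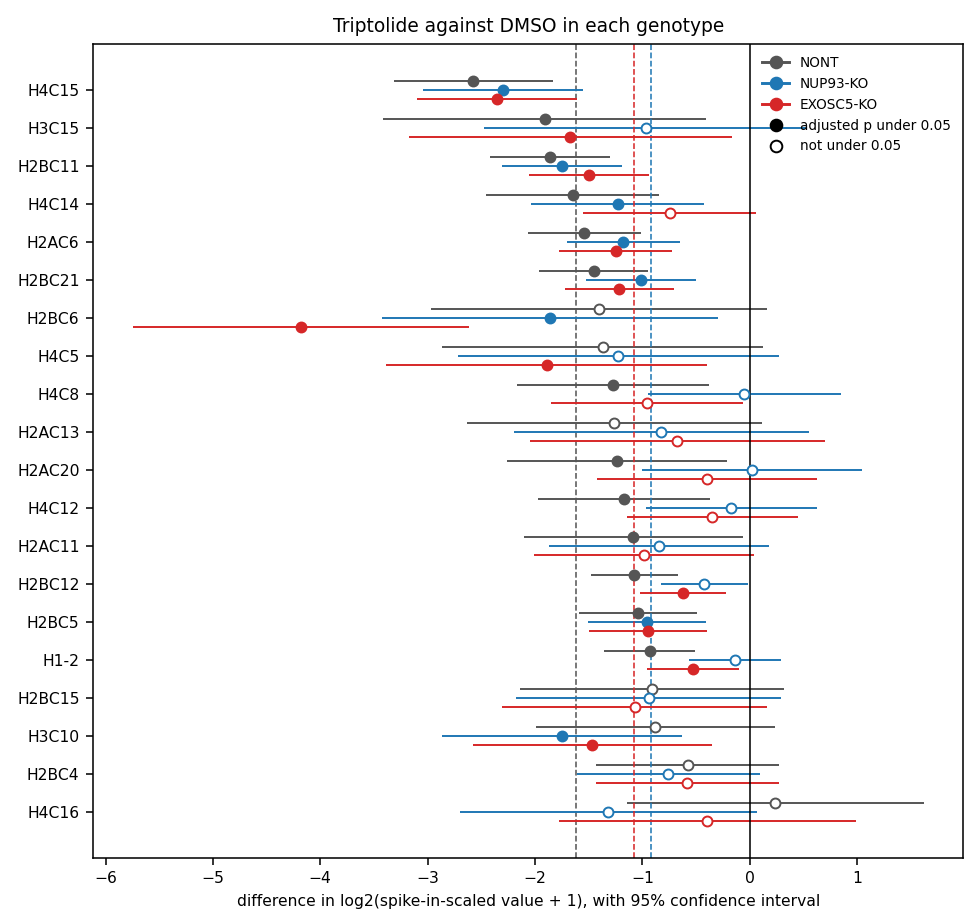
Difference of triptolide from DMSO in log2(value + 1), with 95% confidence intervals, for the 20 tested genes in 3 genotypes; filled points passed an adjusted p of 0.05 and dashed lines mark the median of all genes in each genotype. In each genotype H4C15 and H2BC11 lie left of that genotype's dashed line, at −2.57 and −1.86 in NONT. H1-2 lies right of it in each, at −0.93 in NONT.

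The difference in triptolide response between each knockout and NONT was tested directly, and the tests share the NONT libraries. No histone gene passed in either direction (0.760% of all genes were called higher and 0.0145% lower in NUP93-KO, and 0.319% higher and 0.0145% lower in EXOSC5-KO), while at an unadjusted p under 0.05 2 genes were higher in the first (41.3% of all genes) and 1 was lower in the second (0.405% of all genes, with 23.1% higher). The lowest adjusted p in NUP93-KO was that of H1-2, with a difference of 0.80 ± 0.29 (limma adjusted p = 0.0755), followed by H2BC12 with 0.65 ± 0.27 (limma adjusted p = 0.0925). In EXOSC5-KO H2BC6 had the widest gap, at −2.77 ± 1.05 (limma adjusted p = 0.180). Without the first NONT DMSO library, 3 genes passed as higher in each comparison (H1-2, H2BC12 and H2BC21 in NUP93-KO, and H1-2, H2BC12 and H4C14 in EXOSC5-KO), but then 7040 and 5280 of all genes passed too. The median over the 20 genes came to 0.32 with NUP93-KO and 0.24 with EXOSC5-KO, below the 0.74 and 0.57 of all genes. Its sign depends on the scale, since it was −0.43 and −0.28 with libraries set to the same sum over genes, −0.40 and −0.31 with the same median of ratios, and −0.33 and −0.19 with the same sum of mitochondrial mRNAs.

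Genes that act on histone mRNA were set beside these values. The lists held 7 regulators of histone transcription (transcription factors, cyclins and the kinase CDK2), 12 factors of histone 3′ end processing and 8 of histone mRNA decay. None of these genes passed as higher or lower in either knockout against NONT under DMSO. After triptolide, when 90.0%, 55.1% and 64.3% of all genes fell in NONT, NUP93-KO and EXOSC5-KO, all 7 of the first list fell in each genotype, led in NONT by NPAT, the coactivator of histone transcription, with a log2 difference of −4.04 ± 0.53. Of the processing list 12 fell in NONT, 8 for NUP93-KO and 11 for EXOSC5-KO, and of the decay list 8, 8 and 7. ZNF473, a zinc finger protein of the U7 complex, was at 276 and 261 in NONT under DMSO and at 1.50 and 0.727 after triptolide. The EXOSC5-KO values were 269 and 314, then 21.4 and 17.7, and the difference in response was 3.19 ± 0.58 (limma adjusted p = 0.0372). That call was not kept under all alternatives, with adjusted p from 0.0101 to 0.213, and its NONT values after triptolide lie near the worth of 1 read.

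SLBP, the stem-loop binding protein, was at 567 and 691 in NONT, 503 and 570 in the NUP93-KO libraries and 464 and 539 in the EXOSC5-KO libraries under DMSO. After triptolide it was at 37.3 and 56.7, 100.0 and 101, and 37.6 and 48.7. It thus fell in every genotype, with log2 differences of −3.74, −2.40 and −3.52, and its difference in response of 1.34 ± 0.39 for NUP93-KO did not pass (limma adjusted p = 0.0612).

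The replacement histone variants, such as H3-3B and CENPA, fell after triptolide in 11 of 11 tested genes in NONT, 7 for NUP93-KO and 8 for EXOSC5-KO. The shares of all genes were the same 90.0%, 55.1% and 64.3%. CENPA and H3-3B led in NONT, with log2 differences of −3.15 and −3.05. Their median in EXOSC5-KO against NONT under DMSO was −0.24. That of 25 S-phase genes was −0.40 and that of 19 p53 target genes 0.55, with no gene of any of these lists past the threshold. S-phase sums were 47461 and 71367 in NONT and 44866 and 42317 in EXOSC5-KO, and p53 target sums were 20941 and 29759 in NONT and 37592 and 35250 in EXOSC5-KO. The part of cell cycle state in the histone values was not tested.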

How the data were processed

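Poly(A)-selected RNA from 12 U2OS libraries was analysed. The authors added polyadenylated ERCC RNAs in proportion to counted cells, pseudoaligned reads with kallisto (version 0.46.1 in the submitters' processing notes, which also name GRCh38 and DESeq2), summarised them per gene and divided by size factors from the ERCC transcripts, so the deposited values are a normalised signal and not counts. Among low values, up to several times the worth of 1 read, 21.5% to 31.1% were whole multiples of that worth (tolerance 0.02), so no count model was used. An error in counting cells or adding spike-in shifts a whole library.

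Gene names, transcripts and coordinates came from GENCODE 44 (GRCh38), with 19584 of 22379 IDs matched. The authors built the kallisto index from Ensembl GRCh38 cDNA of unstated release. Its transcript ends and shared words may differ from those given above. The 13811 genes whose 6 DMSO libraries averaged 10 or more were fitted as log2(value + 1) with 6 group means in limma 3.58.1 (R 4.3.3, eBayes with trend). Two-sided p-values of 8 contrasts were adjusted over all genes (Benjamini-Hochberg), with a threshold of 0.05. The fit was tested on simulated data. Sums, sequences and figures used Python 3.11.15, NumPy 2.4.6, pandas 2.3.3 and matplotlib 3.10.9.

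The histone genes and gene lists were chosen with earlier results of these data known. The genes named were, per family, the 3 with the highest mean per kilobase, per contrast up to 3 in each direction with the largest difference past the threshold, NUP93, EXOSC5 and SLBP, and up to 2 genes per list and contrast. H1-4, H1-1 and H3C1, also named by this rule, were below the level for testing. H2BC4, H2BC21, H2AC13, H4C16 and the tests behind the summed H4C14 and H4C15 were chosen after their values were seen. Alternatives were other scales, added constants, filters, no variance trend, a replicate block and leaving out each library. Precision rests on 2 libraries a group and on the depth given above.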

Additional observations from a re-analysis of the deposited data

How the results depend on the processing

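The fall after triptolide depends on the ERCC scale. With libraries set to the same sum over genes, the histone genes called lower numbered 1, 5 and 4 for NONT, NUP93-KO and EXOSC5-KO, and the ratios of summed values were 1.07, 0.948 and 0.967. With the same median of ratios, 1, 2 and 2 genes were lower and the ratios were 1.32, 1.19 and 1.17. With the same sum of mitochondrial mRNAs, 14 genes were lower in NUP93-KO and the ratios were 0.541, 0.519 and 0.522. Which scale is right was not tested.

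Single triptolide responses turned positive on these scales. With the same sum over genes the log2 differences in NONT were 0.40 for H1-2, 0.17 for H2AC11, 0.0329 for H2AC20, 0.26 for H2BC12, 0.29 for H2BC5, 0.13 for H4C12 and 0.0439 for H4C8, and those of H1-2 in NUP93-KO and EXOSC5-KO were 0.43 and 0.26, with 0.17 for H2BC12 in EXOSC5-KO. With the same median of ratios they were, in NONT, 0.71 for H1-2, 0.46 for H2AC11, 0.32 for H2AC20, 0.10 for H2AC6, 0.57 for H2BC12, 0.18 for H2BC21, 1.02 for H2BC4, 0.59 for H2BC5, 0.43 for H4C12 and 0.34 for H4C8. In NUP93-KO they were 0.76 for H1-2, 0.47 for H2BC12 and 0.70 for H4C12, and in EXOSC5-KO 0.54 for H1-2, 0.45 for H2BC12, 0.12 for H2BC5 and 0.71 for H4C12.

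In EXOSC5-KO against NONT, 3 genes were called higher with the same sum over genes and 3 with the same median of ratios, and 0 with the same sum of mitochondrial mRNAs, without the variance trend, and under the replicate block. In EXOSC5-KO against NUP93-KO, 2 were higher with the same sum over genes and 2 with the median of ratios. Without the variance trend 12 genes fell in NUP93-KO.

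Leaving out 1 library gave 10 to 15 genes lower in NONT, 5 to 9 in NUP93-KO (5 without its second DMSO library) and 5 to 12 in EXOSC5-KO (5 without its first DMSO and 6 without its first triptolide library), and summed ratios of 0.364 to 0.496, 0.617 to 0.662 and 0.536 to 0.582. It gave 0 to 2 genes higher in EXOSC5-KO against NONT (0 without any single EXOSC5-KO or NUP93-KO library or the first NONT DMSO library), 0 to 1 in EXOSC5-KO against NUP93-KO (1 without either NONT DMSO library), 0 in NUP93-KO against NONT, and 0 to 3 in each difference in response (3 without the first NONT DMSO library).

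Same-numbered libraries did not deviate together (correlations of deviations from −0.05 to 0.04), which gave no sign of pairing by number. Correlations between single libraries cannot decide whether same-numbered samples shared a culture or batch. With the number as a replicate block, 12, 8 and 11 genes fell in NONT, NUP93-KO and EXOSC5-KO, and H1-2 had an adjusted p of 0.0599 (limma) in EXOSC5-KO against NONT. The other added constants and filters, including testing all 44 genes, and summing H4C14 with H4C15 kept each count within 1.5 times its value. Genes near the worth of 1 read, 0.490 to 1.76, are limited by counting, and groups of 2 libraries limit the rest.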

Other observations

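The 24 histone genes under the level for testing summed to 38.6 and 51.3 in NONT, 63.2 and 59.4 in the NUP93-KO libraries and 91.9 and 166 in the EXOSC5-KO libraries under DMSO, and to 24.5 and 13, 29.9 and 39.0, and 68.1 and 73.4 after triptolide. Both EXOSC5-KO libraries stood above all others under DMSO, by a sum that spans few reads per gene. H1-4, a further linker histone gene, was at 3.80 and 3.51 in NONT and at 4.42 and 16 in EXOSC5-KO, and H3C1 was at 2.85 and 3.50 in NONT and 14.9 and 19.0 in EXOSC5-KO. H1-1 did not exceed 5.78 in any library. These values carry no test.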
